A study of Homo sapiens with 4 samples.

Results

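The WNT ligand genes and the genes of their receptors were described in HCT116, an established cell line from a human colorectal carcinoma, with and without a DNA methyltransferase inhibitor. Members were chosen by symbol: every WNT and Frizzled (FZD) gene, LRP5, LRP6, ROR1, ROR2 and RYK as receptors or co-receptors, and WLS and PORCN as genes of ligand secretion. Of 17958 genes with a probe set naming them alone, 35 were members, namely 19 ligands, 15 receptors and WLS, each with 1 probe set. PORCN was not analysed here. The groups were vehicle (2 arrays, numbered 1 and 2) and 5-aza-2'-deoxycytidine, a cytosine analog that traps DNA methyltransferases on DNA, at 1 µM (2 arrays, numbered 1 and 2). The first dose was given 24 hours after seeding, a further dose 48 hours after it, and RNA was taken at 72 hours; no genotype other than that of the line is labelled. The labels do not say whether the 2 arrays of a group came from separate cultures, so the spread that the p-values rest on could be technical.

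WNT proteins are secreted, lipid-modified glycoproteins. PORCN attaches the lipid and WLS carries the ligand to the cell surface, where it binds a Frizzled receptor together with a co-receptor. With LRP5 or LRP6 the signal protects beta-catenin (CTNNB1) from degradation and lets it act with TCF/LEF factors, the canonical branch; with ROR1, ROR2 or RYK it can instead direct cell polarity and movement. The canonical branch maintains the stem cells of the intestinal crypt and is active in most colorectal cancers, in HCT116 through a mutation that stabilizes beta-catenin.

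The levels are log2 values from the RMA method, so a difference of 1 is a 2-fold change, and a probe set's level is set only against its own level on other arrays. Array medians over 33297 probe sets lay between 5.72 and 5.84. No detection calls come with the values, and low levels may not differ from background. Genes were tested with limma over all 17958 genes, and a rise or a fall means an adjusted p under 0.05 (Benjamini-Hochberg). For a single gene the smallest p of an exact permutation test is 0.333 with these 4 arrays, so every call rests on the variance that limma pools over genes. In simulated data with 200 changed genes among 17958, the test recovered 1.8% of changes of 0.5 and 75.6% of changes of 1 (log2). In these data 5023 genes were called, which moves the adjusted threshold, so recovery here may differ from those shares. A member without a call is not shown to be unchanged. The 10 colon epithelial markers had mean vehicle levels between 3.77 (CDH17) and 13.01 (KRT8); those of VIL1, GPA33, CDX1 and CDX2 were 4.31, 4.58, 5.71 and 7.92. Of the 10, EPCAM was 1.64-fold lower, CDX2 1.63-fold and KRT18 1.36-fold higher, and the other 7 had no call. The share called, 30%, was near the 28.0% of all genes. In bulk RNA, fewer cells that express a gene and less RNA per cell cannot be told apart.

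The compound traps DNA methyltransferases, which methylate cytosines of CG dinucleotides. The 250 bases before the RefSeq gene start (build GRCh38.p14) are therefore shown for ligands and 1 receptor whose levels differed in direction. They are written 5′ to 3′ on the gene's strand with each CG in capitals. WNT9A (chr1:227947933-227948182, minus strand) and WNT3A (chr1:228006748-228006997, plus strand) lie near each other, and only the first was called higher. WNT3 (chr17:46818693-46818942, minus strand) was called higher, and WNT16 (chr7:121328750-121328999, plus strand) and the receptor ROR1 (chr1:63773767-63774016, plus strand) were called lower.
WNT9A: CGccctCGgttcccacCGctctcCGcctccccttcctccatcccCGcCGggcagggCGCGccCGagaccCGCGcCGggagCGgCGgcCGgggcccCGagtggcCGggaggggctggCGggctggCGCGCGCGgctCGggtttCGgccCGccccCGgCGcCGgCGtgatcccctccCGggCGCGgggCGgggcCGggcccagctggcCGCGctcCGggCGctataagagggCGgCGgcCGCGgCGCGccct
WNT3A: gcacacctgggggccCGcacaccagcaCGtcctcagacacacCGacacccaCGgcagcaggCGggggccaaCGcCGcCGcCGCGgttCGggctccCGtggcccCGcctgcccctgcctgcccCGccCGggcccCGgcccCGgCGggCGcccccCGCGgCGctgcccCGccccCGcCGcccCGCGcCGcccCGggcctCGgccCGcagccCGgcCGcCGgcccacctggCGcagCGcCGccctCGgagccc
WNT3: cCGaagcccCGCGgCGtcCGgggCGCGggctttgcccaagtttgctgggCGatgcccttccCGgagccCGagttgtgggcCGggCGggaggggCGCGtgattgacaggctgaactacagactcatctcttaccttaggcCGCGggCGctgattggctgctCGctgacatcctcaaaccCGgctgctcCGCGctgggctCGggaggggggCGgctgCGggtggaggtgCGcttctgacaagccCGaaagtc
WNT16: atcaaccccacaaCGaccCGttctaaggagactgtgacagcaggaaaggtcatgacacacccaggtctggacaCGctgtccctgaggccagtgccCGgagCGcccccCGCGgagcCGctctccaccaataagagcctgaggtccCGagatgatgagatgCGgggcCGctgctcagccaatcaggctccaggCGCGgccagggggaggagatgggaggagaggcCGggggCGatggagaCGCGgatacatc
ROR1: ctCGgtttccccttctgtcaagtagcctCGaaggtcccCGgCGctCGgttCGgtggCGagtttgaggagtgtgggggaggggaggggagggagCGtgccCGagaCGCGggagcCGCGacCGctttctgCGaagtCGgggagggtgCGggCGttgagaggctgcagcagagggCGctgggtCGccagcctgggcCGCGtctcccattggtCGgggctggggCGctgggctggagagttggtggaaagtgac

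The window of WNT9A held 44 CG dinucleotides, that of WNT3A 38, WNT3 26, ROR1 24 and WNT16 17. Over the 19637 such windows of tested genes the median was 17, with quartiles of 6 and 26. Methylation was not analysed here.

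The receptor genes that passed the test were all lower after treatment, and ligand genes went both ways. Of 15 receptors, 7 fell and 0 rose in limma's test, among them 4 of the 10 Frizzled genes. Without adjustment 7 were lower and 1 was higher at a p under 0.05, against 4130 and 2984 of all 17958 genes. Of 19 ligands, 3 rose and 1 fell. Over all genes tested 28.0% were called: 15.6% fell and 12.4% rose, against 46.7% and 0.0% of receptors and 5.26% and 15.8% of ligands. The share of rises among ligands lay near that of all genes and their share of falls below it. With all 4 arrays, the share of falls among receptors was above that of all genes. The size of that excess depended on dim genes, as all 15 receptors stayed when the dimmest 33.3% of genes were left out. In that fit 46.7% of receptors fell, against 23.1% of the 11972 genes left. With all 17958 genes kept, the median log2 fold change was -0.22 for receptors, 0.09 for ligands and -0.07 for all genes. Arrays of both groups did not overlap, with treated lower, for 9 of 15 receptors and 4 of 19 ligands, against 39.5% of all genes. With treated higher they did not overlap for 3 of 15 receptors and 7 of 19 ligands, against 26.3% of all genes. The difference between ligands and receptors was not tested.

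The receptor count rested on the number of vehicle arrays. Without vehicle replicate 1 it was 2 falls (FZD2 and ROR1) and without vehicle replicate 2 it was 1 (FZD2), while over all genes the falls went from 2794 to 1196 and 1237. The share of receptors that fell was then 13.3% against 6.66% of all genes without vehicle replicate 1, and 6.67% against 6.89% without vehicle replicate 2, where it no longer exceeded that of all genes. In every pairing of a treated with a vehicle array, 11 or 12 of 15 receptors were lower, against 6 to 8 of 19 ligands. Median differences lay between -0.39 and -0.13 for receptors and between -0.08 and -0.05 for all genes. These pairings share arrays. By group means, 10662 of 17958 genes were lower. Housekeeping centring, which moved all genes up by 0.12, left 5 receptor falls and added 1 rise (FZD8). It gave 5 ligand rises, the added ones being WNT7B and WNT7A. Over all genes 15.6% then rose and 10.4% fell, against 6.67% and 33.3% of receptors and 26.3% and 5.26% of ligands.

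**Figure D1:**
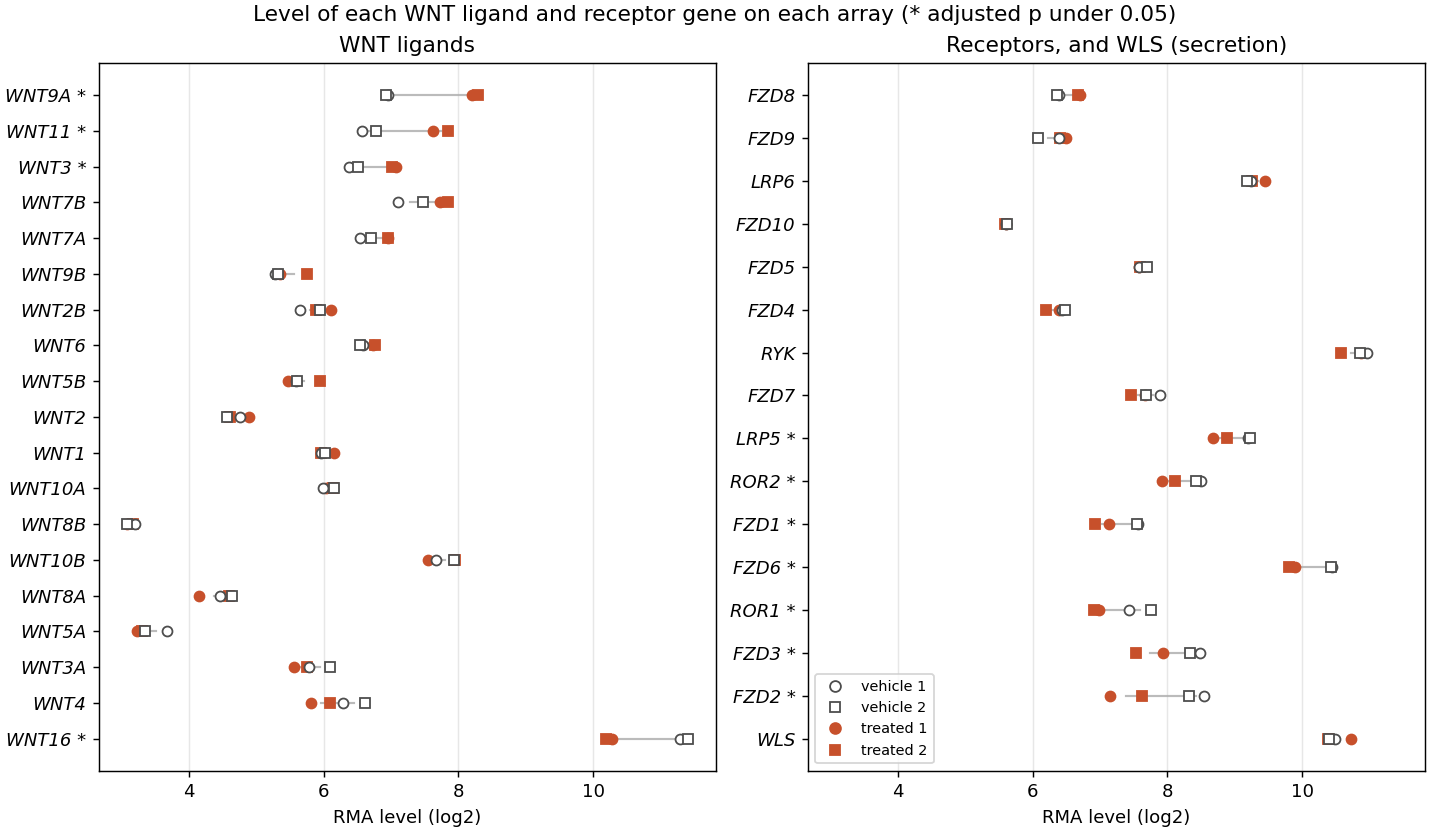
Level (log2 RMA) of each WNT ligand (left), receptor and WLS (right) on the 4 arrays, open symbols for vehicle and filled symbols for treated cells, circles for replicate 1 and squares for replicate 2; grey lines join group means, asterisks mark an adjusted p under 0.05. Filled symbols lie to the right of open ones for WNT9A, WNT11 and WNT3 and to the left for WNT16 and the 7 called receptors.

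Among the ligands, WNT9A, a ligand of joint and blood stem cell development, had the largest rise. Its levels were 6.96 and 6.93 on the vehicle arrays and 8.20 and 8.29 on the treated arrays. Both treated values were above both vehicle values by over 1 on the log2 scale, and the gene was 2.46-fold higher (log2 fold change 1.30, SE 0.12, limma adjusted p = 0.000392). WNT11, a ligand best known for the noncanonical branch and for cell movements in the embryo, had levels of 6.57 and 6.78 in vehicle and 7.63 and 7.85 in treated cells. The groups did not overlap, and it was 2.09-fold higher (log2 fold change 1.06, SE 0.14, adjusted p = 0.00222). A called rise of at least 2-fold was found for 5.05% of all genes and, among members, for WNT9A and WNT11.

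WNT3, a canonical ligand that Paneth cells supply to intestinal stem cells, rose less. It had levels of 6.38 and 6.51 in vehicle and 7.08 and 7.02 in treated cells, without overlap. It was 1.52-fold higher (log2 fold change 0.60, SE 0.12, adjusted p = 0.0103), and the call was lost without vehicle replicate 1 or vehicle replicate 2, with values of 0.54 and 0.67 and adjusted p of up to 0.114. The calls of WNT9A and WNT11 were kept in all 10 alternative fits, with log2 fold changes from 1.25 to 1.42 and from 0.95 to 1.18.

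WNT16, a ligand with known roles in bone and skin, was the ligand that fell. Its levels were 11.29 and 11.40 in vehicle cells and 10.28 and 10.19 in treated cells. The vehicle arrays were both about 1 log2 unit above the treated ones, a 2.16-fold fall (log2 fold change -1.11, SE 0.12, adjusted p = 0.000881). It was called in all 10 alternative fits, with log2 fold changes between -1.17 and -0.99. A fall of at least 2-fold was called for 2.62% of all genes, and among members for WNT16 and FZD2.

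Several ligands lay close to the threshold. WNT7B, a ligand made by many epithelia, had levels of 7.10 and 7.47 in vehicle and 7.73 and 7.85 in treated cells (log2 fold change 0.50, adjusted p = 0.0518). It passed in 5 of the 10 alternative fits, with housekeeping centring, repeated quantile normalization, a replicate block, a trended prior or without the dimmest 33.3% of genes. Its paralog WNT7A had levels of 6.53 and 6.70 in vehicle and 6.95 and 6.95 in treated cells (log2 fold change 0.33, adjusted p = 0.0841). WNT4, a ligand of kidney and gonad development, went the other way, from 6.29 and 6.61 to 5.82 and 6.10 (log2 fold change -0.49, adjusted p = 0.0601). For WNT7B, WNT7A and WNT4 the groups did not overlap, as for 65.8% of all genes. WNT4 passed in 4 alternative fits, with the replicate block, without treated replicate 2, after repeated quantile normalization and without the dimmest 33.3% of genes.

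The remaining 12 ligands had log2 fold changes between -0.28 (WNT3A) and 0.25 (WNT9B), with adjusted p of 0.213 (WNT3A) and higher. WNT9B passed as higher without treated replicate 1 (0.45, adjusted p = 0.0337). They include WNT1, the founding member of the family, and WNT10B, whose levels were 7.67 and 7.93 in vehicle and 7.55 and 7.95 in treated cells. For WNT10B the groups overlapped, and the 95% interval of the log2 fold change ran from -0.45 to 0.36. WNT5A, the main noncanonical ligand of connective tissue, had levels of 3.67 and 3.35 in vehicle and 3.24 and 3.31 in treated cells, with a log2 fold change of -0.24. WNT8B had the log2 fold change nearest to 0, -0.01, with a 95% interval from -0.29 to 0.27. The other ligands without a call were WNT2, WNT2B, WNT5B, WNT6, WNT8A and WNT10A.

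In 2 of 7 pairs of ligand paralogs the 95% intervals of the log2 fold change did not overlap, and in 5 they did. WNT9A had a log2 fold change of 1.30 (95% interval 1.03 to 1.57) and WNT9B of 0.25 (-0.12 to 0.62). WNT3 had 0.60 (0.32 to 0.89) and WNT3A -0.28 (-0.64 to 0.07). These are the pairs without overlap; no difference between paralogs was tested. WNT7A and WNT7B (0.05 to 0.62 and 0.13 to 0.87), WNT5A and WNT5B, WNT2 and WNT2B, WNT8A and WNT8B, and WNT10A and WNT10B had overlapping intervals. Sharing of probes between paralogs was not assessed.

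Position in the genome pairs some of the same ligands in another way. In the RefSeq gene table, WNT3 and WNT9B are next to each other on chromosome 17, WNT10B and WNT1 on chromosome 12, and WNT6 and WNT10A on chromosome 2, with 0 protein-coding genes between them. WNT9A and WNT3A on chromosome 1 have 1 protein-coding gene between them. Within the pairs on chromosomes 1 and 17, 1 gene was called higher (WNT9A, WNT3) and its neighbour was not, with log2 fold changes of -0.28 for WNT3A and 0.25 for WNT9B. The pairs on chromosomes 12 and 2 had no call and log2 fold changes between -0.05 and 0.19.

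**Figure D2:**
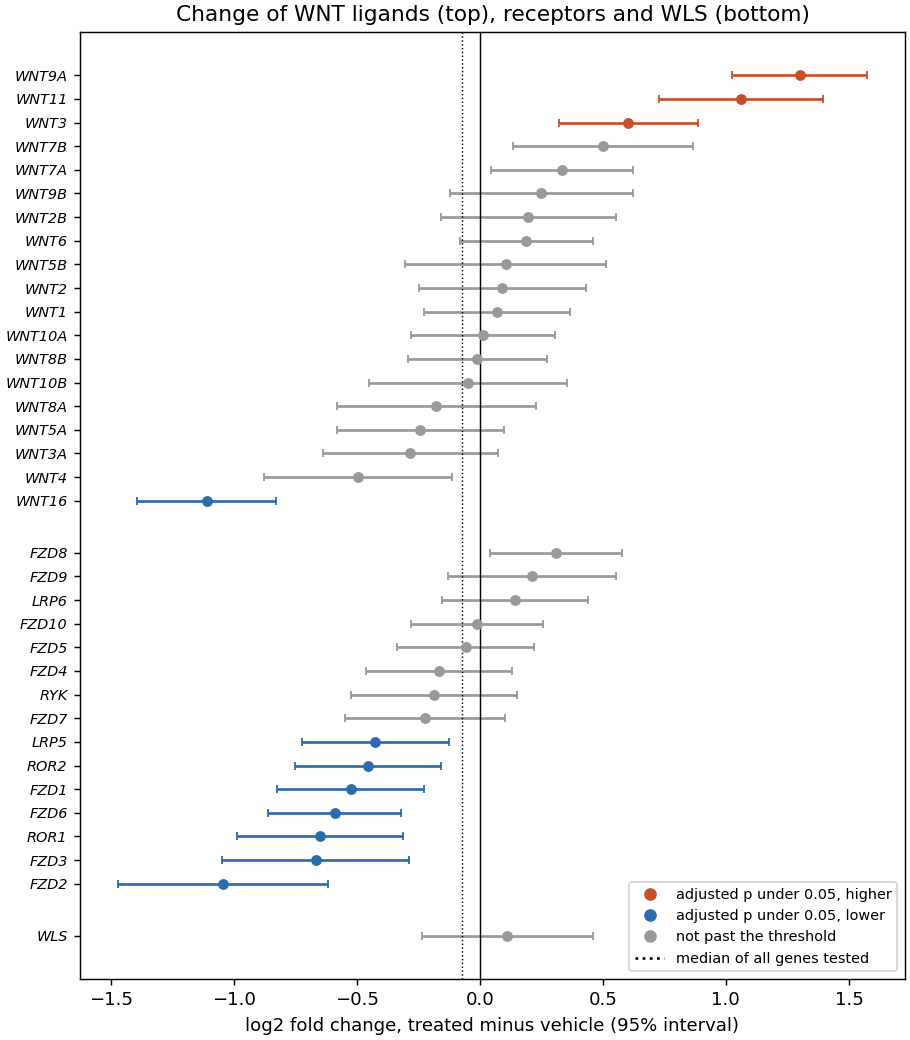
Log2 fold change (treated minus vehicle) with its 95% interval for the 19 ligands, 15 receptors and WLS, ordered by value within each group; red, called higher; blue, called lower; grey, not past the threshold; the dotted line is the median of all genes, -0.07. Receptor values run from -1.04 (FZD2) to 0.31 (FZD8), and ligand values from -1.11 (WNT16) to 1.30 (WNT9A).

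The Frizzled genes encode receptors with an extracellular cysteine-rich domain that holds the WNT lipid, and by sequence they form the groups FZD1, FZD2 and FZD7; FZD3 and FZD6; FZD5 and FZD8; and FZD4, FZD9 and FZD10. In the first group FZD2 had the largest fall of all receptors. Its levels were 8.54 and 8.32 on the vehicle arrays and 7.15 and 7.62 on the treated arrays. The treated arrays lay below both vehicle arrays but 0.47 apart, and the gene was 2.06-fold lower, with a log2 fold change of -1.04 (SE 0.18, limma adjusted p = 0.00626). It was called in all 10 alternative fits, with values from -1.28 to -0.81.

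FZD1 had levels of 7.57 and 7.55 in vehicle and 7.14 and 6.93 in treated cells. The groups did not overlap, and it was 1.44-fold lower (change of -0.52 on the log2 scale, SE 0.13, adjusted p = 0.0223). FZD7, a Frizzled of intestinal stem cells, had levels of 7.88 and 7.69 in vehicle and 7.67 and 7.46 in treated cells. Those groups were separated by 0.02, and FZD7 did not pass the test (log2 fold change -0.22, adjusted p = 0.275, 95% interval -0.55 to 0.10).

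FZD3 and FZD6, Frizzleds known for planar cell polarity, both fell. FZD3 had levels of 8.48 and 8.33 in vehicle and 7.93 and 7.54 in treated cells. It was 1.59-fold lower without overlap (log2 fold change -0.67, SE 0.16, adjusted p = 0.0221). FZD6 had levels of 10.45 and 10.43 in vehicle and 9.89 and 9.81 in treated cells. Its replicates were 0.08 apart or less, and it was 1.51-fold lower (change of -0.59 on the log2 scale, SE 0.11, adjusted p = 0.00990). The calls of FZD1, FZD3 and FZD6 were lost without vehicle replicate 1 and without vehicle replicate 2, with log2 fold changes between -0.74 and -0.51 in those fits and adjusted p of up to 0.147, 0.127 and 0.0895.

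The remaining Frizzled groups had no call. FZD5 had levels of 7.58 and 7.70 in vehicle and 7.57 and 7.60 in treated cells, and its relative FZD8 had 6.39 and 6.36, then 6.70 and 6.68. FZD8 was thus higher on both treated arrays (log2 fold change 0.31, adjusted p = 0.0847) and passed with housekeeping centring (0.43, adjusted p = 0.0357), the only alternative fit in which it did. FZD4, a receptor of blood vessels that also binds norrin, had a log2 fold change of -0.17, FZD9 of 0.21 and FZD10 of -0.01. For FZD10 the 4 arrays lay between 5.59 and 5.61.

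Of the canonical co-receptors, LRP5 fell and LRP6 did not pass. LRP5 had levels of 9.20 and 9.22 in vehicle and 8.68 and 8.89 in treated cells, 1.34-fold lower (change of -0.42 on the log2 scale, SE 0.13, adjusted p = 0.0450). LRP6 had levels of 9.24 and 9.18 in vehicle and 9.45 and 9.26 in treated cells. All treated values of LRP6 were above the vehicle values, by as little as 0.02, and the 95% interval of its log2 fold change of 0.14 ran from -0.15 to 0.44. The interval of LRP5, -0.72 to -0.13, overlapped with it, and the difference between both genes was not tested.

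The receptor tyrosine kinase family members ROR1 and ROR2, receptors for noncanonical ligands such as WNT5A, both fell. ROR1 had levels of 7.44 and 7.75 in vehicle and 6.98 and 6.91 in treated cells, without overlap. It was 1.57-fold lower (change of -0.65 on the log2 scale, SE 0.14, adjusted p = 0.0158), and the call was lost without vehicle replicate 2 (-0.49, adjusted p = 0.147). ROR2 had levels of 8.51 and 8.43 in vehicle and 7.92 and 8.11 in treated cells, and was 1.37-fold lower (change of -0.45 on the log2 scale, SE 0.13, adjusted p = 0.0358). The calls of ROR2 and LRP5 were each lost in 5 of 10 alternative fits, those that left out treated replicate 1 or either vehicle replicate and those with housekeeping centring or repeated quantile normalization. RYK, a pseudokinase receptor, had levels of 10.96 and 10.86 in vehicle and 10.88 and 10.57 in treated cells, which overlapped (log2 fold change -0.19, adjusted p = 0.381).

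WLS, the carrier of lipid-modified ligands, had levels of 10.49 and 10.40 in vehicle and 10.72 and 10.39 in treated cells. The groups overlapped, and the 95% interval of its log2 fold change of 0.11 ran from -0.24 to 0.46.

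RefSeq promoter windows were found for 26 of the 35 members, 4 of which have 2 windows. Not matched were WNT7B, WNT10B, WNT11, FZD2, FZD3, FZD6, FZD7, FZD10 and LRP6. The 30 windows held between 3 (WNT8B) and 44 (WNT9A) CG dinucleotides, with a median of 25. Called genes lay on either side: WNT9A (44) and WNT3 (26) were higher, while LRP5 (43), ROR2 (32), ROR1 (24), FZD1 (19) and WNT16 (17) were lower. Windows with many CG dinucleotides were also found before ligands without a call, such as WNT4 (40) and WNT3A (38). The letters CTTTGAA and CTTTGAT, core letters of the TCF/LEF motif, were searched on both strands with overlaps counted. Of the 30 member windows 0 held either, against 5.00% of the 19637 windows of tested genes. With 30 windows, 0 cannot be told apart from a share of 5.00%. Median C+G content was 72.2% in member windows and 62.4% in those of tested genes.

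**Figure D3:**
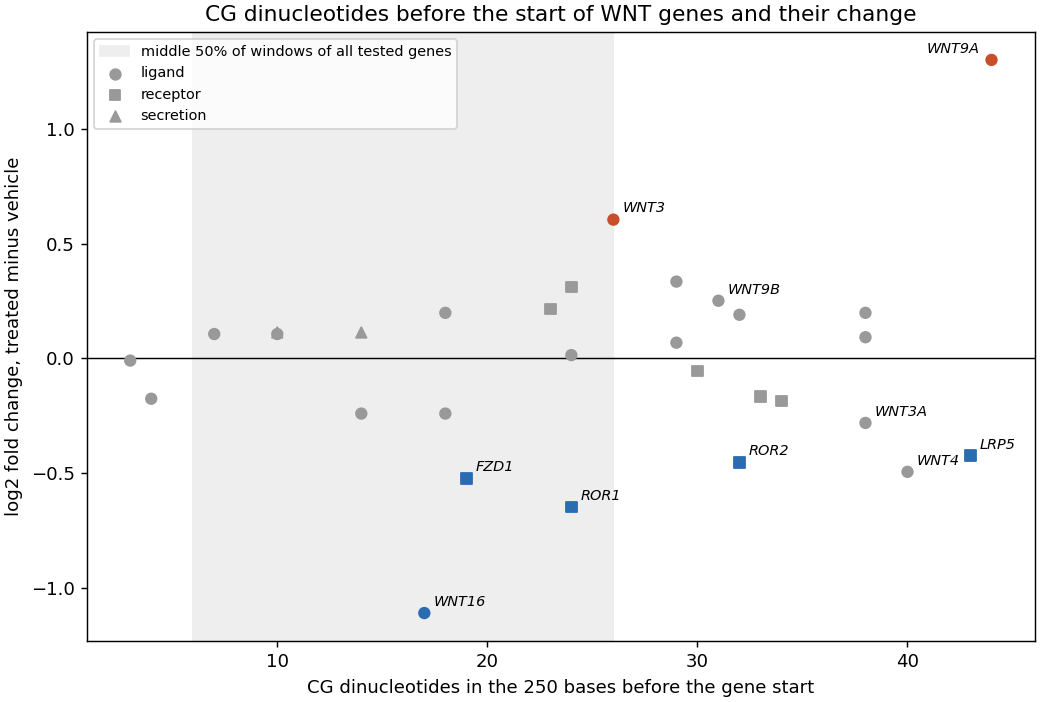
CG dinucleotides in the 250 bases before the RefSeq gene start (horizontal) against the log2 fold change, treated minus vehicle (vertical), for the 30 windows of 26 members; circles are ligands, squares receptors and triangles WLS; red and blue points passed the test as higher and lower. The shaded band, 6 to 26 CG dinucleotides, holds the middle 50% of windows of all tested genes, and genes on both sides of 0 lie to the right of it.

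Other genes of the pathway were read from fixed lists in the same fit. The list of the R-spondin module, which controls how many Frizzled receptors stay on the surface, and of receptor turnover held 12 genes. Of these, 3 rose and 1 fell (25% and 8.33%, against 12.4% and 15.6% of all genes). LGR6, an R-spondin receptor, was 2.23-fold higher, RSPO4, an R-spondin, 1.69-fold and DAB2, an endocytic adaptor, 1.40-fold higher. LGR4, another R-spondin receptor, was 1.54-fold lower, a call lost without either vehicle replicate; without vehicle replicate 2 there was 1 rise. RNF43 and ZNRF3, the ubiquitin ligases that remove Frizzled receptors, had log2 fold changes of -0.02 and -0.09 and no call (adjusted p of 0.920 and 0.660, both picked with their values in view).

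Of 20 auxiliary receptors and surface binding proteins, 3 rose and 3 fell, 15.0% each, near the 12.4% and 15.6% of all genes. ADGRA2 and RECK, which together present WNT7A and WNT7B to Frizzled receptors, were 1.85-fold and 1.79-fold lower, and TSPAN12, a partner of FZD4, was lower by a log2 fold change of -0.59. The syndecans SDC4 and SDC1 were 1.66-fold and 1.31-fold higher and MUSK, a muscle receptor kinase, 1.90-fold higher. Leaving out vehicle replicate 1 or centring on housekeeping genes gave 1 fall, and leaving out treated replicate 1 gave 5 rises.

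Of 15 secreted antagonists, which bind WNT ligands, co-receptors or the lipid, 8 rose and 0 fell in limma's test. Before adjustment 9 were higher and 0 lower at a p under 0.05, against 2984 and 4130 of all 17958 genes. DKK4, an LRP5 and LRP6 blocker, went from 4.66 and 4.72 to 8.02 and 7.61, 8.71-fold higher. IGFBP4, SFRP1 and NOTUM were 3.39-fold, 3.11-fold and 1.82-fold higher. The share of rises was 53.3%, against 12.4% of all genes, and the median log2 fold change was 0.57. Without the dimmest 33.3% of genes, some of them antagonists, 5 rises were called. In the same samples the co-receptor genes LRP5 and LRP6 had log2 fold changes of -0.42 and 0.14.

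Of 30 intracellular transducers, 3 rose and 4 fell, shares of 10.0% and 13.3% that lay near those of all genes. Among the corepressor genes, TLE2 was 2.03-fold and CTBP1 1.46-fold lower, TLE3 1.35-fold higher and TLE4 higher by a log2 fold change of 0.58. TLE1 and CTBP2 had log2 fold changes of 0.03 and 0.30 and no call (limma adjusted p of 0.893 and 0.142). PYGO1, a beta-catenin cofactor, was 1.64-fold higher, CTNNBIP1, an inhibitor of beta-catenin, 1.38-fold lower and CSNK1G2, a kinase of LRP6, 1.32-fold lower. The rises numbered 1 and 0, and the falls 1 in both fits, without vehicle replicate 1 and vehicle replicate 2; without treated replicate 1 there were 6 rises, and with housekeeping centring 7 rises and 2 falls. With the replicate number as a block there were 8 rises and 6 falls.

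Of 25 genes of the planar polarity and calcium branch, 6 fell and 1 rose (24% and 4%, against 15.6% and 12.4% of all genes). INVS, a Dishevelled-binding protein, was 1.88-fold, PRKCA, a protein kinase C, 1.83-fold, and the calcium-dependent kinases CAMK2D and CAMK2G 1.78-fold and 1.56-fold lower. VANGL2, a core polarity protein, was 1.48-fold higher and was not called without vehicle replicate 1 or vehicle replicate 2; without vehicle replicate 1 the falls numbered 3, and without treated replicate 2 there were 2 rises. Of 17 TCF/LEF factors and feedback targets, 6 rose and 3 fell (35.3% and 17.6%), the rises by smallest p being LEF1, AXIN2, NKD1 and NOTUM. The falls were of TNFRSF19, CD44 and TCF7L2, 1.66-fold, 1.42-fold and 1.32-fold, and numbered 0 and 1 without vehicle replicate 1 and vehicle replicate 2 and 1 with housekeeping centring. The list of the retromer, which recycles WLS, and of other WNT trafficking genes held 9 genes. Of these, 0 rose and 0 fell in limma's test, and 1 fell with the replicate number as a block. Before adjustment 0 were higher and 1 lower at a p under 0.05, against 2984 and 4130 of all 17958 genes.

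**Figure D4:**
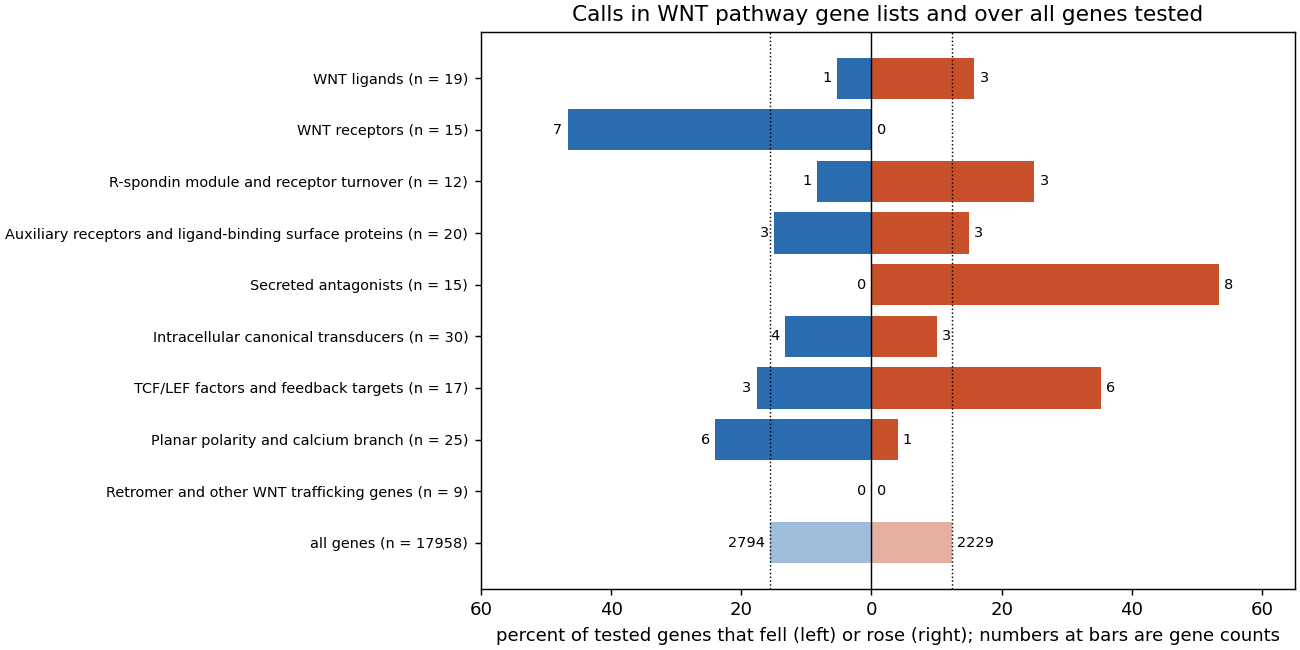
Percent of the tested genes of each WNT pathway list that fell (left, blue) or rose (right, red) in treated cells, with gene counts at the bars and the shares over all 17958 genes as dotted lines (15.6% fell, 12.4% rose). Receptors (7 of 15) have the longest bar to the left and secreted antagonists (8 of 15) the longest to the right.

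Markers of other cell types moved with treatment too. Of 30 tested marker genes of fibroblasts, endothelial cells and white blood cells, 13 rose and 1 fell, 43.3% and 3.33% against 12.4% and 15.6% of all genes, and their summed log2 levels were 141 and 144 in vehicle and 162 and 163 in treated cells. The rises were of 5 of 12 fibroblast markers, 3 of 8 endothelial markers and 5 of 10 white blood cell markers. Among them were THY1 (8.89-fold higher) and COL6A3 (6.22-fold) for fibroblasts, ENG (5.76-fold) and PECAM1 (3.46-fold) for endothelial cells, and CD3D (3.47-fold), CD68 (2.88-fold) and CSF1R (2.82-fold) for white blood cells. The fall was of KDR, an endothelial marker, 1.46-fold lower. Others had no call, such as DCN (2.80 and 3.05 in vehicle and treated means), CDH5 (4.31 and 4.49) and PTPRC (3.02 and 3.12). POSTN (3.42 and 2.97) and CLDN5 (5.45 and 5.14) also had no call and had lower treated means. Without vehicle replicate 1 there were 9 rises, and without vehicle replicate 2 there were 11. The markers named here were picked with their values in view. All samples are labelled as the HCT116 line, and no other cell type is labelled. The relation of these markers to the ligand and receptor values was not tested.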

How the data were processed

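Total RNA from 4 samples of HCT116 cells, 2 vehicle and 2 treated, was measured on Affymetrix arrays, 1 sample per array. The deposited values are log2 levels for which the authors used Affymetrix Expression Console with RMA, per the submitters' processing notes; the genome build is not given in the sources used here, nor are versions. Because RMA quantile normalizes the arrays, the total RNA of a cell is not visible, and folds near background are usually compressed. The number of arrays limits the precision.

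Probe sets were named through the platform annotation table: 19181 of 33297 had 1 symbol, 2055 had several and 12061 were not listed. For a gene with several, the probe set of highest mean level stood for it. The test was limma 3.58.1 (R 4.3.3; lmFit and eBayes without covariates); p-values are two-sided and adjusted by Benjamini-Hochberg over 17958 genes. Group levels, intervals (95%) and folds come from that fit. The fit was tested on simulated data. Alternative fits were each array left out, a replicate block, housekeeping centring and repeated quantile normalization. Others left out dim genes, averaged all probe sets or used a trended robust prior. Members have 1 probe set each, so the averaging could not change their levels. The block, the dim filter and the prior kept the log2 fold change of each member tested and could change only its p-value. Alternative thresholds were an adjusted p under 0.01 and a 1.5-fold minimum. Members with a call, those with the highest levels per role and up to 4 called genes per pathway list were to be named, and all called genes where a list had 5 or fewer in a direction; other names were picked with values in view. The members and lists were chosen with earlier results of these data known. Promoter windows are from RefSeq (GRCh38.p14), matched by symbol, and were counted in Python 3.11.15.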

Additional observations from a re-analysis of the deposited data

How the results depend on the processing

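Of the 11 members with a call, 4 (WNT9A, WNT11, WNT16 and FZD2) were called in all 10 alternative fits, and the other 7 lost the call in 1 to 5 of them, with 0 reversals. Over the fits that leave out 1 array, ligand rises ran from 2 to 4 and ligand falls from 1 to 2, receptor falls from 1 to 7, and receptor rises stayed at 0. In those fits rises ran from 1267 to 2530 and falls from 1196 to 3401 over all genes, and from 12 to 28 and from 5 to 19 over the 124 other pathway genes; the median of receptors ran from -0.33 to -0.12. Housekeeping centring gave 5 ligand rises, 1 receptor rise, 2794 rises and 1859 falls over all genes and 10 falls of other pathway genes. Medians were then 0.21 for ligands, -0.11 for receptors and 0.046 for all genes. Repeated quantile normalization gave 2 ligand falls and a median of -0.030 for all genes. Without the dimmest 33.3% of genes 2 ligands fell, and 46.7% of receptors fell, against 23.1% of all genes left. At an adjusted p under 0.01, 2 receptors fell, 1298 genes rose and 1255 fell, with 13 rises and 8 falls of other pathway genes. At a 1.5-fold minimum 4 receptors and 1814 genes fell, with 15 rises and 11 falls of other pathway genes. Members without a call changed sign in 22 values: with centring FZD10 (0.11), FZD5 (0.062), WNT10B (0.071) and WNT8B (0.11), and after repeated quantile normalization WNT1 (-0.039), WNT10A (-0.10), WNT10B (0.012), WNT5B (-0.0048) and WNT8B (0.13). With 1 array left out their log2 fold changes ran from -0.12 to 0.0060 for FZD5, -0.056 to 0.28 for WLS, -0.029 to 0.17 for WNT1, -0.068 to 0.10 for WNT10A, -0.25 to 0.15 for WNT10B, -0.044 to 0.23 for WNT2, -0.14 to 0.35 for WNT5B, -0.40 to 0.044 for WNT8A and -0.069 to 0.049 for WNT8B. The cause of these changes was not tested.

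Arrays share replicate numbers across groups, but the labels do not say that a number marks a shared culture or day, and with 2 pairs the numbers were not taken as pairs. Deviations of same-numbered arrays from their group means correlated at 0.27 across genes. With the replicate number as a block, 7 receptors and 2 ligands fell, 4 ligands rose, and over all genes 2805 rose and 3834 fell; calls of transducers went from 3 rises and 4 falls to 8 and 6.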
